A study of Mus musculus with 5 samples.

Results

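miR-451a and miR-122-5p are miRNAs of other tissues that are also common in serum, the first typical of red blood cell precursors and the second of hepatocytes. They were followed here in OP9 cells, a mouse stromal line that can form adipocytes. Both were chosen by a measured value, their higher relative abundance in the Drosha knockout libraries, so the difference between the groups is described below with no test. These 2 miRNAs are listed as mmu-miR-451a and mmu-miR-122-5p among 1105 mature miRNAs in the deposited table, of which 471 had reads in at least 1 library.

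The Drosha KO group held 2 libraries of OP9 cells carrying a knockout of Drosha. The Empty vector group held 3 libraries of OP9 cells whose genotype is labelled WT. All 5 were collected on day 10 of adipogenic differentiation under 1 µM rosiglitazone, a PPARγ agonist, and the line was kept in MEMα with 20% fetal bovine serum. The way the knockout was made, and whether the libraries of a group came from separate clones or cultures, is not given in the labels. The p-values below therefore take in no more than the library-to-library spread seen here, part or all of which may be technical.

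Most miRNAs are cut from a primary transcript in the nucleus by Drosha with its partner DGCR8, and the resulting hairpin is then cut by Dicer in the cytoplasm. miR-122 follows this route and is the dominant miRNA of the liver, where it acts on cholesterol and lipid metabolism. miR-451a is also released by Drosha but bypasses Dicer: its short hairpin is loaded into Argonaute 2, which slices the far arm before the end is trimmed. It is transcribed together with miR-144 under GATA1 in erythroid cells, and it protects red cell precursors from oxidative stress by restraining Ywhaz.

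The sequence of miR-451a is shown because its place in its hairpin is the mark of that Dicer-free route. The sequences are from RefSeq on GRCm38.p6, where 1 of the 2 miRNAs was matched. Capitals mark the seed (bases 2 to 8) in the mature forms and the mature miRNA in the hairpin, all written 5′ to 3′. miR-144-5p and miR-144-3p, of the same primary transcript, and miR-451b, from the opposite strand of the same hairpin region, are set beside it.
miR-451a: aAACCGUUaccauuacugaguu
Mir451a hairpin: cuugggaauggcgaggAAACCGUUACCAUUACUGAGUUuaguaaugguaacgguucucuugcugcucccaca
miR-144-5p: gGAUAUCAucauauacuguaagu
miR-144-3p: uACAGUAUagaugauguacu
miR-451b: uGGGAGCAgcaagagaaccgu

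The mature miR-451a of 22 bases took positions 17 to 38 of the 72-base hairpin. In a minimum free energy fold, 18 of its bases lay on the 5′ arm, the last 4 lay in the loop and 0 lay on the 3′ arm. No other mature miRNA in the RefSeq table carried its seed (0 others). On GRCm38, Mir451a lies on the plus strand of chromosome 11 at 78073170 to 78073241, outside any protein-coding gene in GENCODE. Mir144 ends 99 bases upstream, at 78073005 to 78073070. The nearest protein-coding gene is Eral1, on the minus strand, whose annotated end is 135 bases away. Mir451b occupies the same coordinates as Mir451a on the minus strand, and its mature form of 21 bases comes from a different stretch of the region.

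The miRNA that shares its primary transcript was not seen beside miR-451a. miR-144-5p had 0 reads in every library and so did miR-451b, while miR-451a had 6 to 18. The 3p arm of miR-144, the more abundant arm in erythroid cells, was not analysed here. As a one-sided 95% Poisson bound, a count of 0 allows up to about 3 reads per library. At a length of 22 bases this is 9.95 and 11 TPM in the knockout libraries and 1.34 to 1.58 TPM in the empty-vector libraries. The intervals given below for other counts are two-sided. TPM is the number of reads divided by a length and scaled to the same sum in each library, so every level below is relative to the other listed miRNAs.

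In relative abundance, miR-451a stood at 19.9 and 58.7 TPM in Drosha KO libraries 1 and 2. It stood at 8.06, 4.99 and 7.91 TPM in Empty vector libraries 1, 2 and 3. Both knockout libraries were above every empty-vector library, and the knockout libraries differed between themselves by 2.95-fold. The means were 39.3 ± 27.4 TPM (SD, n = 2) and 6.99 ± 1.73 TPM (SD, n = 3), a 5.62-fold ratio or 2.49 on the log2 scale. By level, it was the 151st and 110th miRNA of the knockout libraries and between the 169th and 188th of the empty-vector libraries.

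miR-122-5p stood at 36.5 and 25.7 TPM in Drosha KO libraries 1 and 2. In Empty vector libraries 1, 2 and 3 it stood at 11.6, 11.98 and 5.28 TPM. The groups again did not overlap, but the order of the knockout libraries was the opposite of that for miR-451a. The means were 31.1 ± 7.65 TPM (SD, n = 2) and 9.63 ± 3.78 TPM (SD, n = 3), a 3.23-fold ratio or 1.69 on the log2 scale. Both miRNAs had an empty-vector mean above the filter of 5 TPM and would have passed it without the knockout libraries, unlike 22 of the 205 miRNAs tested. Among those 205, every knockout library was above every empty-vector library for 73 (35.6%), and since the rule used this contrast nothing is read from the count of 2 of 2.

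**Figure D1:**
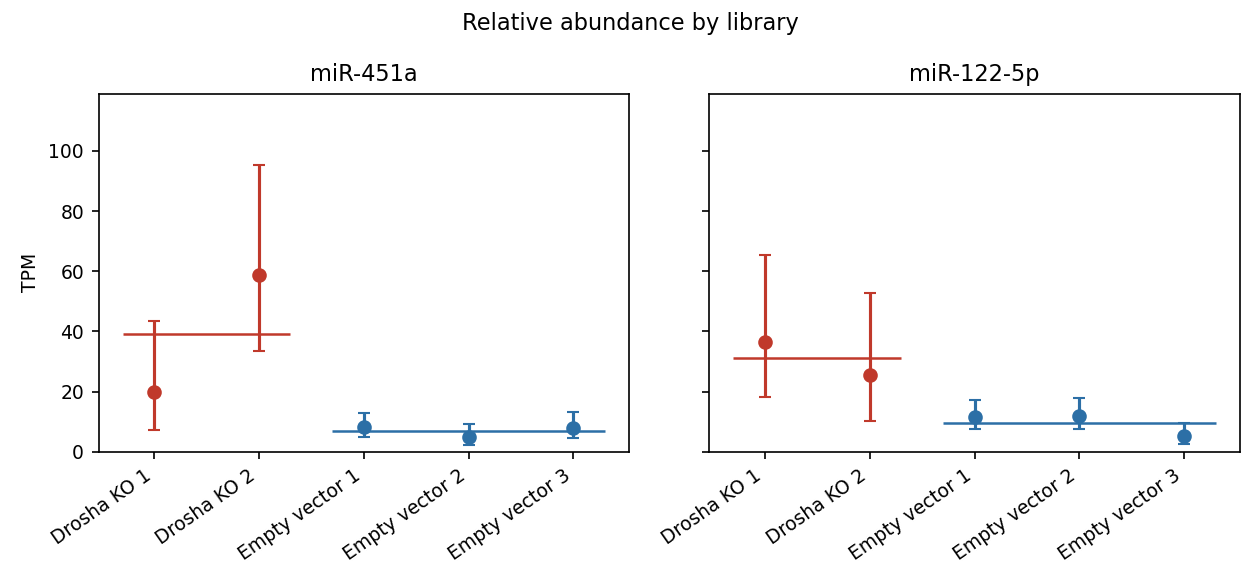
TPM of miR-451a (left) and miR-122-5p (right) in each library, with exact 95% Poisson intervals on the recovered reads as bars and group means as horizontal lines. The knockout libraries sit at 19.9 and 58.7 TPM and at 36.5 and 25.7 TPM, above the empty-vector libraries at 4.99 to 11.98 TPM, with wider intervals.

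The reads behind these levels were few and, before scaling, did not separate the groups. Each TPM value was a whole number of reads at a length of 22 bases, and a single read came to 3.32 and 3.67 TPM in the knockout but 0.448 to 0.528 TPM in the other libraries. Reads recovered over all listed pairs were 304722 and 277142 in the knockout libraries and 1918589 to 2262367 in the empty-vector libraries, a 7.11-fold difference in mean. A read that matched several precursors is counted at each in these totals, which are not the reads sequenced. The gap in depth moves with the groups, and its part in the levels of both miRNAs was not tested.

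miR-451a had 6 and 16 reads in Drosha KO libraries 1 and 2 and 18, 10 and 15 reads in Empty vector libraries 1, 2 and 3. Unscaled, the groups overlapped, with means of 11 ± 7.07 reads (SD, n = 2) and 14.3 ± 4.04 reads (SD, n = 3), a ratio of 0.767. At the pooled empty-vector share of recovered reads, 2.11 and 1.92 reads would have been expected in the knockout libraries. Counted exactly, 95% Poisson intervals ran from 7.30 to 43.3 TPM in Drosha KO library 1 and from 33.5 to 95.3 TPM in library 2. Those of the empty-vector libraries ran from 4.78 to 12.7, 2.39 to 9.18 and 4.43 to 13.1 TPM. The interval of knockout library 1 thus overlapped all 3 empty-vector intervals, and that of knockout library 2 overlapped none (0). These intervals cover counting error only, and the rule chose miR-451a by these values, so nothing is read from the overlaps.

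miR-122-5p had 11 and 7 reads in Drosha KO libraries 1 and 2 and 26, 24 and 10 reads in Empty vector libraries 1, 2 and 3. The unscaled groups overlapped here as well, with means of 9 ± 2.83 reads (SD, n = 2) and 20.0 ± 8.72 reads (SD, n = 3), a ratio of 0.450. At the pooled empty-vector share, 2.94 and 2.68 reads would have been expected. The intervals were 18.2 to 65.3 TPM and 10.3 to 52.9 TPM in the knockout libraries against 7.61 to 17.1, 7.67 to 17.8 and 2.53 to 9.70 TPM in the empty-vector libraries. The interval of knockout library 1 lay above all of them, while that of knockout library 2 overlapped those of empty-vector libraries 1 and 2. The same limits hold as for miR-451a: counting error only, on values that the rule used.

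**Figure D2:**
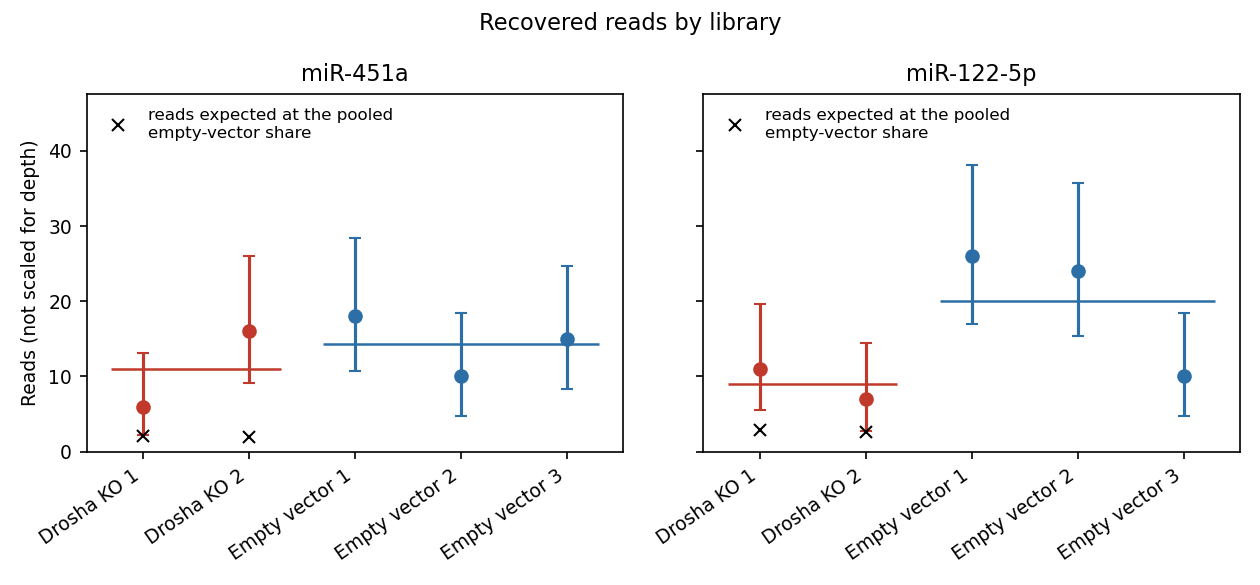
Recovered reads of miR-451a (left) and miR-122-5p (right) in each library, not scaled for depth, with exact 95% Poisson intervals as bars and group means as lines. Crosses mark the reads expected in the knockout libraries at the pooled empty-vector share, 1.92 to 2.94, below the 6 to 16 reads found there.

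Among the 205 tested miRNAs the median ratio of unscaled mean reads, knockout to empty vector, was 0.133. The ratios of 0.767 for miR-451a and 0.450 for miR-122-5p were the 22nd and 37th highest, a position that the choice of these miRNAs in part sets. With libraries instead rescaled to an equal sum of 5 miRNAs made without Drosha, the log2 ratio of means became -0.031 for miR-451a and -0.90 for miR-122-5p. That sum was itself 26699 and 27349 TPM in the knockout and 4228 to 5736 TPM in the empty-vector libraries. miR-484 alone made up 21642 and 21011 TPM of it in Drosha KO libraries 1 and 2. This rescaling divides each library by a single factor, so it moves the log2 changes of nearly all miRNAs down together. The sign of both ratios thus depends on what the libraries are scaled to, and its change here comes with that common shift. Under median of ratios (2.39 for miR-451a and 1.61 for miR-122-5p) and quantile normalization (1.98 and 1.23) both stayed positive. In bulk RNA, a different share of cells holding a miRNA and a different level per cell cannot be told apart.

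**Figure D3:**
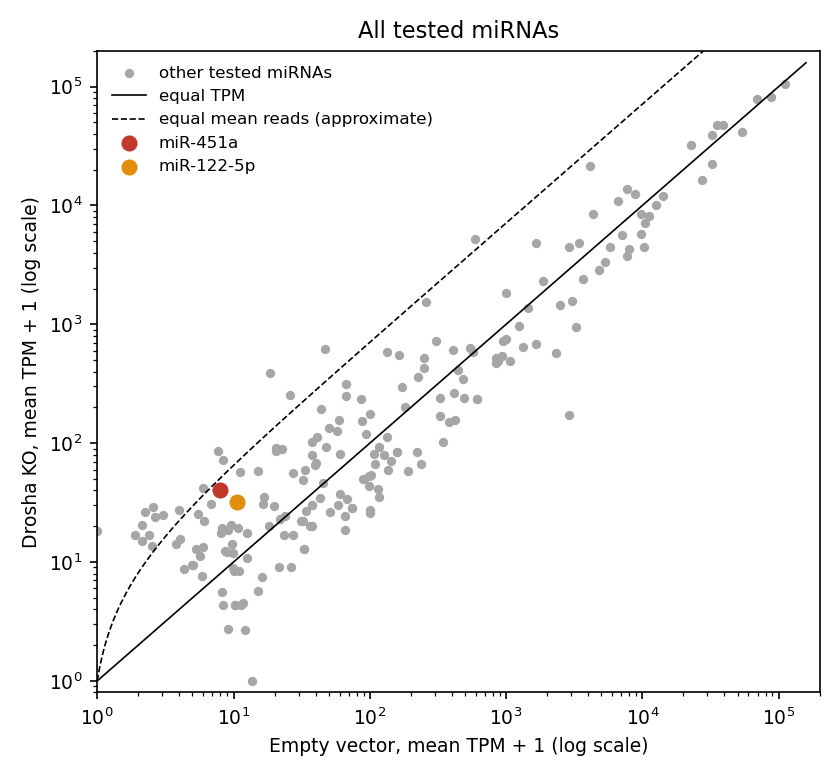
Mean TPM + 1 of the 205 tested miRNAs in the Empty vector group (x axis, log scale, n = 3) and the Drosha KO group (y axis, log scale, n = 2), with the solid line at equal TPM and the dashed line at about equal unscaled reads. miR-451a and miR-122-5p lie between both lines, miR-451a nearer the dashed one, with unscaled read ratios of 0.767 and 0.450.

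The observed ratio of miR-451a to miR-122-5p varied between libraries, on too few reads to show whether the underlying ratio was fixed. miR-451a made up 35.3% of their joint reads in Drosha KO library 1 (6 of 17, exact Clopper-Pearson 95% interval 14.2% to 61.7%) and 69.6% in library 2 (16 of 23, 47.1% to 86.8%). In Empty vector libraries 1, 2 and 3 it made up 40.9% (26.3% to 56.8%), 29.4% (15.1% to 47.5%) and 60% (38.7% to 78.9%). The shares crossed between the groups, and all 5 intervals have values in common. Together they took 56.4 and 84.3 TPM in the knockout libraries and 13.2 to 19.7 TPM in the empty-vector libraries.

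Other blood and liver miRNAs were read from lists of erythroid, white blood cell and liver miRNAs, made with earlier results of these data known. Their values did not enter the rule that chose miR-451a and miR-122-5p. Of 15 listed in the table, 9 had reads and 7 were tested, in limma on log2(TPM + 1) with Benjamini-Hochberg adjustment over all 205 miRNAs. The 7 include miR-486a-5p and miR-486b-5p, which had nearly the same reads in each library and are not separate measurements. With these counted once, 6 were tested, of which 1 rose, 0 fell and 5 did not pass the threshold, with a median log2 change of -0.51. Over all 205 tested miRNAs, 57 (27.8%) rose and 56 (27.3%) fell, with a median of -0.08.

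The erythroid miR-486a-5p, which comes from an intron of the ankyrin gene Ank1, stood at 43.1 and 55.0 TPM in the knockout against 103, 82.4 and 82.3 TPM in the empty-vector libraries. Every knockout value was below every empty-vector value, the opposite order to that of miR-451a, with a log2 change of -0.85 (SE 0.37, limma adjusted p = 0.0537). Its reads were 13 and 15 in the knockout and 231, 165 and 156 in the empty-vector libraries, a ratio of 0.0761. miR-486a-5p was past the threshold, as lower, under 5 of 15 alternatives, and its near copy miR-486b-5p under 3 (as deposited -0.83, limma adjusted p = 0.0607). Both counts include the equal sum of the miRNAs made without Drosha. That setting lowers log2 changes in common and called 160 of 205 miRNAs lower, so nothing is read from that call. No other listed name of the erythroid list had reads (0). The part of blood cell RNA in the level of miR-451a was not tested.

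Among white blood cell miRNAs 3 were tested, and none (0) passed the threshold. The lymphocyte miR-150-5p, a regulator of Myb, had 0 and 4 reads in the knockout and 23, 13 and 20 in the empty-vector libraries, with a log2 change of -1.33 (limma adjusted p = 0.178). Its value rests on single libraries: without Drosha KO library 1 it was 0.66, and without Drosha KO library 2, which leaves a lone knockout library at 0 reads, it was called lower (-3.31). The inflammatory miR-155-5p stood at 57.1 and 73.7 TPM against 78.8, 126 and 119 TPM, with a log2 change of -0.70 (limma adjusted p = 0.104). miR-146a-5p, a brake on NF-κB signalling that stromal cells make too, stood at 8399 and 8558 TPM against 8653, 11486 and 9383 TPM (log2 change -0.20, limma adjusted p = 0.405). The listed 5p arms of miR-142a and miR-223, miRNAs of blood cells in general and of myeloid cells, were at 0 reads wherever listed. Their 3p arms were not analysed here, so these zeros cover the 5p arms alone.

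Of the liver list, miR-194-5p alone was called higher, and miR-192-5p, which shares a transcript on chromosome 19 with 1 of its precursor copies, was not called. Their sequences show that they have unlike seeds.
miR-192-5p: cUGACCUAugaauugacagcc
miR-194-5p: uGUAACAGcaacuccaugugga

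miR-194-5p stood at 163 and 187 TPM in the knockout against 88.3, 105 and 103 TPM in the empty-vector libraries. Both knockout libraries were above the other 3, with a log2 change of 0.82 (SE 0.33, limma adjusted p = 0.0387) that became -1.66 with libraries rescaled to the miRNAs made without Drosha. The call was lost whenever any 1 library was left out (log2 changes 0.72 to 0.92), and also with no filter, median of ratios, quantile normalization and limma-voom. miR-192-5p stood at 73.0 and 150 TPM against 108, 146 and 141 TPM, with a log2 change of -0.32 (limma adjusted p = 0.426), and the groups overlapped. It was 0.19 without Drosha KO library 1 and -0.83 without Drosha KO library 2, neither of them past the threshold. miR-802-5p, a liver miRNA raised in obesity, and the 5p passenger arm of miR-148a had at most 3 reads in any library.

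Of 68 endothelial, muscle, neural, epithelial and pancreatic names, 34 were listed and the rest were not analysed here. Among the 34 listed names, 12 (35.3%) had reads, against 42.6% of all listed miRNAs. Of these 6 were tested, of which 2 rose and 0 fell, with a median log2 change of 0.59, where 27.8% of all tested miRNAs rose and 27.3% fell. The neural miR-129-5p stood at 1731 and 1948 TPM in the knockout against 950, 936 and 1089 TPM in the empty-vector libraries (log2 change 0.89, SE 0.24, limma adjusted p = 0.00365). The epithelial and sensory miR-182-5p stood at 161 and 106 TPM against 32.7, 51.4 and 63.6 TPM (log2 change 1.44, SE 0.39, limma adjusted p = 0.00365). Both turned negative when rescaled to the miRNAs made without Drosha (-1.63 and -1.03), and miR-182-5p lost its call without Drosha KO library 1 (1.15). The neural miR-9-5p (log2 change -1.23, limma adjusted p = 0.0868) and miR-132-5p (-0.45, limma adjusted p = 0.169) were lower but not called. The median of the tested neural names was -0.45. The epithelial miR-183-5p (0.72) and miR-96-5p (0.46) were higher but not called. All 4 listed pancreatic names, of 8 in that list, were at 0 reads. Zeros and the share with reads cover the listed arms alone. They do not show whether the unlisted arm of a hairpin was absent.

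Of miRNAs that are abundant in serum but also made by stromal cells, all 8 listed names were tested. Of these 1 (12.5%) rose, 3 (37.5%) fell and 4 did not pass, beside 27.8% and 27.3% of all tested miRNAs, and the median log2 change was -0.16. miR-423-5p stood at 102 and 235 TPM in the knockout against 306, 306 and 362 TPM (log2 change -1.06, limma adjusted p = 0.00883). miR-191-5p stood at 4312 and 4321 TPM against 7689, 8910 and 7171 TPM (log2 change -0.87, limma adjusted p = 0.00209), and miR-26a-5p had a log2 change of -0.75 (limma adjusted p = 0.00518). miR-30d-5p was the member that rose, at 5749 and 11177 TPM against 3367, 5077 and 4527 TPM (log2 change 0.91, limma adjusted p = 0.00497; -1.61 when rescaled to the miRNAs made without Drosha).

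Those 4 calls did not all hold without single libraries. That of miR-30d-5p was lost without Drosha KO library 2 (0.43) or Empty vector library 1 (0.74). The call of miR-423-5p was lost without Drosha KO library 1 (-0.46) or Empty vector library 1 (-1.10), and that of miR-26a-5p without Empty vector library 1 (-0.69). With no filter on low values, miR-30d-5p and miR-423-5p lost theirs as well. miR-16-5p, a miRNA of red blood cells as well as of most other cells, stood at 1413 and 1353 TPM against 1198, 1787 and 1319 TPM, and the groups overlapped.

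**Figure D4:**
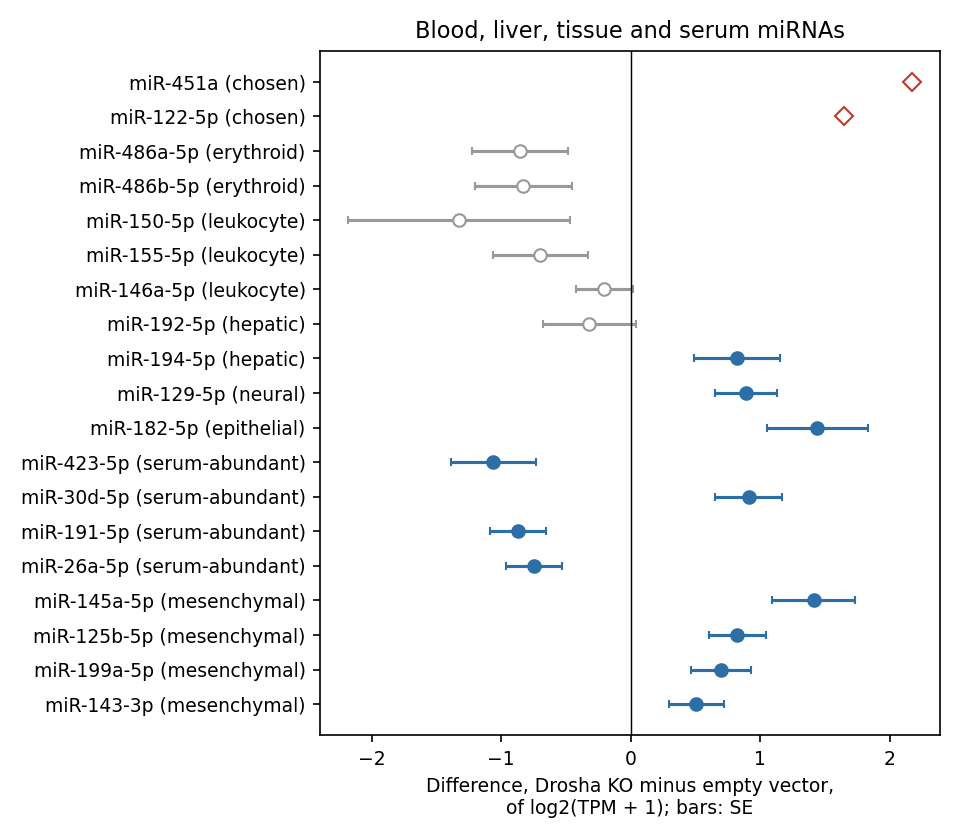
Difference between the groups in log2(TPM + 1) for miRNAs named from each list, with SE bars. Filled points passed the threshold in limma and open grey points did not. The open diamonds are miR-451a (2.17) and miR-122-5p (1.65), drawn without a test because they were chosen for this difference, while the erythroid miR-486a-5p lies at -0.85.

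The labelled cell type was read from mesenchymal miRNAs. All 11 listed names had reads and summed to 58209 and 71948 TPM in the knockout and 47792 to 52232 TPM in the empty-vector libraries, far above the 13.2 to 84.3 TPM of miR-451a and miR-122-5p together. Of 10 tested, 4 rose and 0 fell, where 27.8% and 27.3% of all tested miRNAs did, and the median log2 change was 0.50. Not called were miR-199b-5p (log2 change 0.92), miR-31-5p (0.48), miR-10b-5p (0.23), miR-214-5p (-0.39), miR-100-5p (-0.34) and miR-21a-5p (-0.22). The smooth muscle and stromal miR-145a-5p (log2 change 1.41, limma adjusted p = 0.000851), miR-125b-5p (0.82, 0.00313), miR-199a-5p (0.70, 0.0142) and miR-143-3p (0.51, 0.0463) were called, and all 4 turned negative when rescaled to the miRNAs made without Drosha. The call of miR-143-3p was lost whenever any 1 library was left out (0.46 to 0.57), and also with no filter, median of ratios (0.43), quantile normalization (0.39) and limma-voom (0.51). Those of miR-145a-5p (0.67 and 1.15) and miR-199a-5p (0.45 and 0.58) were lost without Drosha KO library 2 or Empty vector library 1, that of miR-145a-5p also under robust empirical Bayes moderation, and that of miR-199a-5p also with no filter.

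The miRNAs most like miR-451a and miR-122-5p across the 5 libraries were found by the root mean square difference of their log2(TPM + 1) values, each centred on its own mean. For miR-451a these were miR-1843b-5p (0.30), miR-6900-3p (0.30) and miR-379-5p (0.36), which like it were higher in Drosha KO library 2 than in library 1. miR-1843b-5p had 44 and 61 reads in the knockout and 106, 53 and 94 in the empty-vector libraries. miR-6900-3p had 3 and 11 reads against 10, 3 and 5, and miR-379-5p had 2 and 5 against 4, 4 and 8, so both rest on few reads.

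For miR-122-5p the closest were miR-3470b (0.24), miR-3470a (0.27) and miR-669k-5p (0.28), which were higher in Drosha KO library 1. Their unscaled reads were 172 and 129 against 363, 361 and 240 for miR-3470b. They were 192 and 129 against 308, 321 and 151 for miR-3470a, and 7 and 5 against 17, 24 and 10 for miR-669k-5p. miR-122-5p was only the 52nd closest to miR-451a, at 0.86, and miR-451a the 62nd closest to miR-122-5p. These likenesses are over 5 libraries and describe the same contrast that chose both miRNAs.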

How the data were processed

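Small RNA libraries were made from total RNA with unique molecular identifiers and read on a DNBSEQ instrument, per the labels' protocols. The authors deposited TPM values for 1191 pairs of mature miRNA and precursor. Per the submitters' processing notes, which tie neither to a step, the tool named was Bowtie2 2.5.1 and the build GRCm38. Not given in the sources used here are the counting tool, how the identifiers were used, the filters and the strand setting. Many 3p arms were not analysed here.

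The pair with the highest mean stood for each mature miRNA. Reads were recovered by searching lengths of 15 to 30 bases at which all 5 values of a pair were whole reads within a relative tolerance of 1e-06. All 536 pairs with reads came out whole (100%), at 16 to 27 bases. For 406 pairs matched to RefSeq the length equalled that of the mature miRNA, and 6 pairs allowed several lengths. The reads behind each value set its precision.

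limma 3.58.1 in R 4.3.3 was fitted, with its trended prior, to log2(TPM + 1) of the 205 miRNAs whose mean reached 5 TPM, and two-sided p-values were adjusted by Benjamini-Hochberg and called under 0.05. There were 3 residual and 24.2 prior degrees of freedom. The scale understates changes of low miRNAs. Intervals used SciPy 1.17.1 and the fold RNAfold 2.7.2. Read recovery and the fit were tested on simulated data. The members, lists and alternatives were chosen with earlier results of these data known. Besides miR-451a and miR-122-5p, named miRNAs were every erythroid, white blood cell or liver list member with reads, up to 4 called members of largest change in each other list (the 2 most abundant where none was called), and the 3 nearest in pattern. A few more, such as miR-16-5p and the uncalled neural, epithelial and mesenchymal miRNAs, were chosen after their values were seen.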

Additional observations from a re-analysis of the deposited data

How the results depend on the processing

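Read counts of 6 to 26 limit both miRNAs, and 2 knockout libraries limit every test. On the log2 scale miR-451a (2.49) became -0.38 as unscaled reads and -0.031 with an equal sum of the miRNAs made without Drosha, and ran from 1.51 (without Drosha KO library 2) to 3.07 with single libraries left out. miR-122-5p (1.69) became -1.15 and -0.90 in those settings and ran from 1.40 to 1.92. Under median of ratios, quantile normalization and the replicate block both moved by less than the spread between replicates.

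The 57 higher and 56 lower miRNAs became 3 and 160 with an equal sum of the miRNAs made without Drosha, which moved the median log2 change from -0.08 to -2.37. Quantile normalization moved it to -0.26. With single libraries left out, counts ran from 39 to 61 higher and from 29 to 54 lower, the 29 without Empty vector library 1. With the replicate number as a block, 39 were higher and 35 lower. Deviations from the group means correlated at -0.117 and -0.135 between same-numbered libraries, which the labels tie by number alone. Unlike-numbered pairs ran from -0.0256 to 0.135. With 2 knockout libraries the deviations mirror each other, so their correlations with any empty-vector library are opposite in sign by construction. The 1 rise among blood and liver miRNAs became 0 with no filter on low values, with median of ratios, quantile normalization, an equal sum of the miRNAs made without Drosha, limma-voom on recovered reads and the block, and 0 without any single library. The 2 rises among other tissue-restricted miRNAs became 0 with that equal sum and ran from 1 to 3 with libraries left out. The 1 rise among serum-abundant miRNAs became 0 with no filter and with that sum, and ran from 0 to 1.

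An equal sum of the miRNAs made without Drosha divides each library by a single factor, which lowers log2 changes in common. A rise smaller than this shift turns negative by arithmetic, which says nothing about the single miRNA. Those that did so were miR-194-5p (-1.66), miR-129-5p (-1.63), miR-182-5p (-1.03), miR-30d-5p (-1.61), miR-145a-5p (-1.11), miR-125b-5p (-1.70) and miR-199a-5p (-1.82). Also negative were miR-143-3p (-2.01), miR-1843b-5p (-0.32), miR-379-5p (-0.22), miR-3470b (-0.77), miR-3470a (-0.33) and miR-669k-5p (-0.94). The same held for miR-484 (-0.12) and miR-1839-5p (-1.30), which are part of the sum, while miR-877-5p (4.50 as deposited, 2.01) and miR-1981-5p (3.12, 0.60) stayed positive. Without Drosha KO library 1, miR-150-5p (0.66) and miR-192-5p (0.19) turned positive, and with single libraries left out they ran from -3.31 to 0.66 and from -0.83 to 0.19. miR-486a-5p passed the threshold with a pseudocount of 0.1 (-0.87), median of ratios (-0.93), quantile normalization (-0.92), robust empirical Bayes (-0.85) and the equal sum (-3.24), and miR-486b-5p with median of ratios (-0.91), quantile normalization (-0.88) and the equal sum (-3.22). Under the equal sum, miR-155-5p (-3.12), miR-146a-5p (-2.72), miR-150-5p (-2.41) and miR-192-5p (-2.77) were called lower as well. Nothing is read from the calls of that setting. With the replicate block, miR-194-5p (0.85) and miR-143-3p (0.50) lost their calls. Why values moved under the settings other than the equal sum was not tested.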

Other observations

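The 8 blood, liver and tissue miRNAs with reads that fell under the filter were at 0 in Drosha KO library 1 in all cases but miR-128-1-5p, which had 1 read there. In Drosha KO library 2, miR-499-5p of muscle had 3 reads, the neural miR-218-5p 2, the epithelial miR-205-5p 2 and the endothelial miR-126b-5p 1. In Empty vector libraries 1, 2 and 3 the reads were 1, 0 and 2 for miR-499-5p, 0, 0 and 4 for miR-218-5p, 9, 7 and 7 for miR-205-5p and 0, 1 and 0 for miR-126b-5p. Counts this small give no direction.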
